A study of Mus musculus with 24 samples.

Results

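GABA and glycine signalling genes were described across 3 subregions of the mouse suprachiasmatic nucleus (SCN), with and without a light pulse. The set is a list of 27 gene symbols: 11 GABA-A receptor subunits, 2 GABA-B receptor subunits, 4 glycine receptor subunits, 1 scaffold protein, 2 synthesis enzymes, 3 transporters of GABA, 2 enzymes of GABA breakdown and 2 chloride transporters. The brightest probe set of a gene by its mean stood for it, and 26 of the 27 had a named probe set among the 18193 genes of the table, while Gabbr2 was not analysed here. Tests covered genes above log2 4 on 4 or more arrays, which held for 24 of the 27 and for 13494 genes in all. Gabrd and Glra1 exceeded 4 on 0 arrays and were not tested. Gabre and Gabrq on 5 arrays each and Slc6a13 on 6 arrays passed this filter narrowly, and Gabrg3 passed on 19. The other 20 exceeded 4 on all 24 arrays.

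GABA is the main inhibitory transmitter of the SCN, and most neurons of this nucleus make it. GABA-A and glycine receptors are chloride channels built from several subunits, whereas GABA-B receptors act through G proteins. The direction of the chloride current depends on the chloride gradient, which Slc12a2 (a chloride importer) and Slc12a5 (a chloride exporter) help to set, and GABA has been found both to inhibit and to excite SCN neurons.

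The mice were C57BL/6, obtained at 8 weeks of age and housed singly, and all had been held in constant dim red light. The groups were light ventral, light central and light dorsal, from mice given a phase-advancing light pulse of 30 min, and sham ventral, sham central and sham dorsal, from mice given a sham treatment. All were killed 3.5 h later, and the subregions were cut by laser microdissection from haematoxylin-stained coronal cryosections. Each group had 4 arrays, 2 in each of 2 amplification batches, A (replicates 1 and 2) and B (replicates 3 and 4). The labels do not say which arrays share an animal or whether sections were pooled, so the p-values measure only the spread between these samples. Each array holds all the cells of a dissected area, so fewer cells of a type and less RNA per cell cannot be told apart.

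Values are the authors' log2 expression values. Batch A arrays had medians of 3.52 to 3.62 and batch B arrays of 4.81 to 5.07, so groups are set side by side within a batch and every test has the batch as a term. The peptide marker Vip was higher in the ventral than in the dorsal SCN (log2 difference 3.43 ± 0.298 SE, limma adjusted p = 9.97e-08) and Avp was lower (-1.43 ± 0.249, adjusted p = 0.00074). Of 3 markers of the SCN shell (Avp, Prok2 and C1ql3), Avp was the 1 that passed there, with a median of -0.69. In the central SCN both core markers (Vip and Grp) were higher than in the dorsal SCN. Of the shell markers 1 was lower there, with a median of 0.22. The light dorsal 4 array stood apart: its Gapdh 3′ minus 5′ probe set difference was 5.41, against at most 1.07 on the other batch B arrays, and its median correlation with them was 0.913, against at least 0.977. This Gapdh difference was higher throughout batch A, at 2.02 to 3.28, than on the other batch B arrays, at 0.887 to 1.07. Its bearing on the batch A values was not tested. Light central 2 had the lowest median correlation in batch A, 0.955.

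Between subregions, the genes that passed the test were 6 receptor subunit genes and Slc12a2, and those of GABA synthesis and vesicular loading did not pass. Glra2, Gabrb2, Gabra3 and Gabra4 were lower in the ventral than in the dorsal SCN, and Glra3 and Slc12a2 were higher. Of the 24 tested genes, 6 passed between the ventral and dorsal SCN (25%, against 4.61% of all genes tested), 5 between the central and dorsal SCN (20.8%, against 7.11%) and 3 between the ventral and central SCN (12.5%, against 5.2%). The genes were chosen with earlier results of these data known, so the shares here and below describe the list and are no test of enrichment. A gene is called higher or lower here only where limma's adjusted p, over all 13494 genes, was under 0.05. By direction, 2 were higher and 4 lower in the ventral than in the dorsal SCN (2.63% and 1.98% of all genes), 1 higher and 4 lower in the central than in the dorsal SCN (1.96% and 5.14%), and 2 higher and 1 lower in the ventral than in the central SCN (4.36% and 0.845%). Values of the subregions did not overlap in either batch, in the same direction, for 4, 2 and 1 of the 24 genes, against 2.13%, 2.22% and 2.63% of all genes. The median difference of the 24 genes was -0.05 between the ventral and dorsal SCN, beside 0.01 over all genes, and -0.1 between the central and dorsal SCN, beside -0.05. The median between the ventral and central SCN was 0.02, beside 0.05 over all genes.

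**Figure D1:**
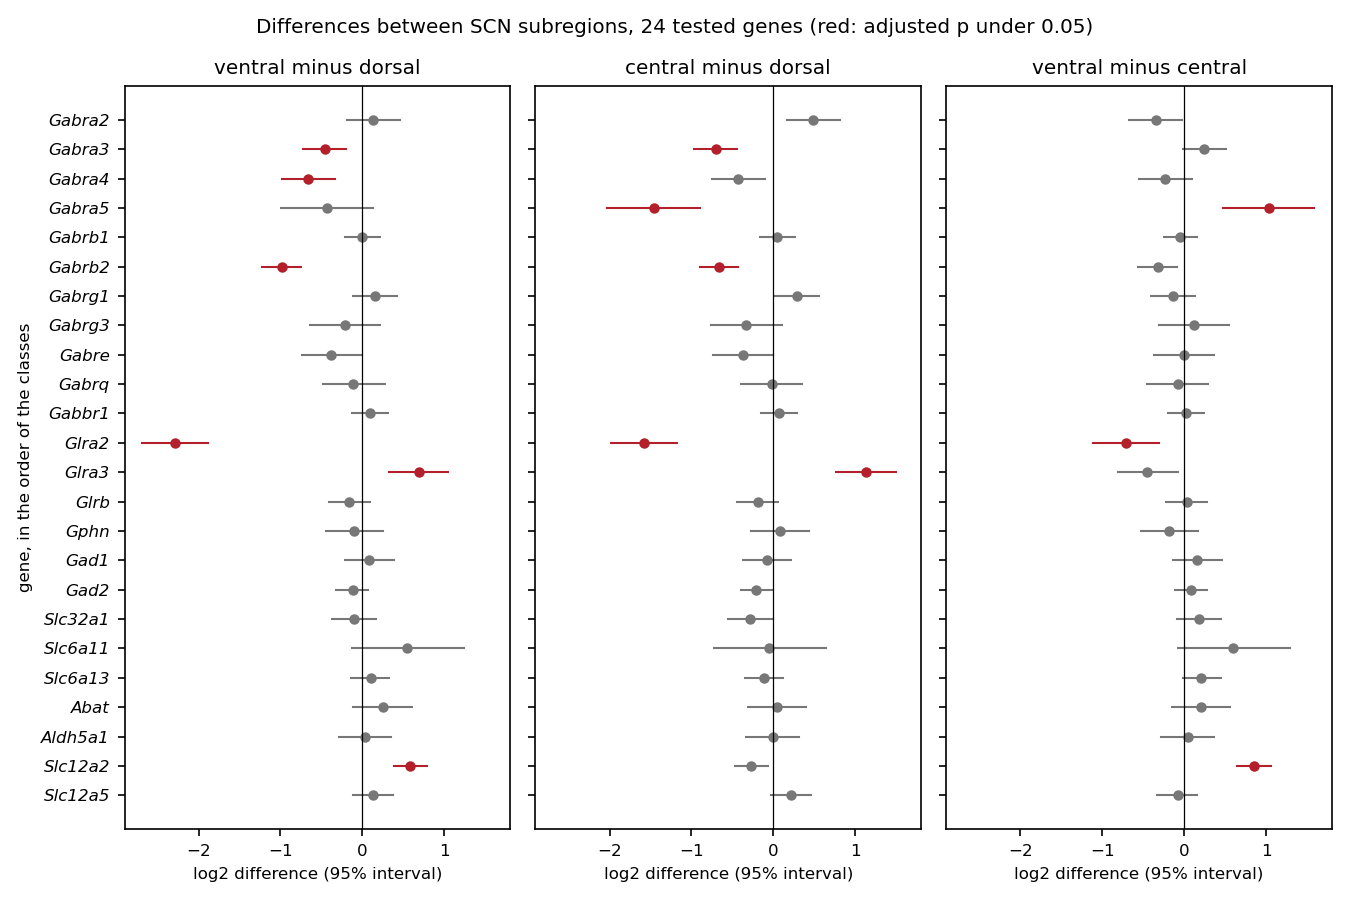
Log2 differences between SCN subregions for the 24 tested genes, with 95% intervals from the fit with batch as a term (8 arrays against 8). Genes in red passed the adjusted threshold. Glra2 lies farthest to the left in the ventral minus dorsal panel at -2.29, and Glra3 lies to the right of 0 in the ventral minus dorsal and central minus dorsal panels.

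Among the glycine receptor subunits, Glra2 and Glra3 differed between subregions in opposite directions, and the shared beta subunit Glrb did not pass. Glra2 encodes the alpha subunit that is best known from the developing nervous system. Ventral Glra2 values were 4.10 and 4.16 in batch A and 6.40 and 6.58 in batch B after light, against 4.92 and 5.18 in batch A and 6.86 and 6.62 in batch B after sham. Central Glra2 values were 5.70 and 4.51 in batch A and 7.38 and 7.23 in batch B after light, against 6.33 and 5.02 in batch A and 7.26 and 7.08 in batch B after sham. Dorsal Glra2 values were 7.51 and 6.73 in batch A and 9.06 and 9.10 in batch B after light, against 7.09 and 6.27 in batch A and 8.69 and 8.73 in batch B after sham. Every ventral value lay below every dorsal value of its batch. Central values lay below the dorsal ones in batch B, and in batch A sham central 1 (6.33) overlapped sham dorsal 2 (6.27). Glra2 was thus 4.9-fold lower in the ventral than in the dorsal SCN (log2 -2.29 ± 0.193 SE, limma adjusted p = 7.91e-08), with -2.31 in batch A and -2.28 in batch B. It was also lower in the central than in the dorsal SCN (-1.58 ± 0.193, adjusted p = 9.8e-06) and in the ventral than in the central SCN (-0.71 ± 0.193, adjusted p = 0.0313). The last of these was lost on leaving out any one of light ventral 1 and 2, sham ventral 1, 3 and 4, light central 1, 3 and 4 and sham central 1, with the highest adjusted p, 0.0771, without light central 1, and leaving out 1 array at a time it ran from -0.84 to -0.55.

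Glra3 encodes another ligand-binding alpha subunit, known from the dorsal horn of the spinal cord. Ventral Glra3 values were 6.94 and 6.60 in batch A and 7.62 and 8.06 in batch B after light, against 6.70 and 6.83 in batch A and 7.74 and 7.73 in batch B after sham. Central Glra3 values were 7.99 and 6.70 in batch A and 8.39 and 8.29 in batch B after light, against 7.51 and 6.93 in batch A and 7.50 and 8.46 in batch B after sham. Dorsal Glra3 values were 6.01 and 6.24 in batch A and 7.55 and 8 in batch B after light, against 5.69 and 5.43 in batch A and 6.82 and 6.98 in batch B after sham. In batch A all ventral and all central values exceeded all dorsal ones, whereas in batch B light dorsal 4 (8) and light dorsal 3 (7.55) reached into the range of the other subregions. Glra3 was higher in the central than in the dorsal SCN (1.13 ± 0.177, 2.19-fold, adjusted p = 0.000194), by 1.44 in batch A and 0.83 in batch B. It was higher in the ventral than in the dorsal SCN by 0.69 ± 0.177 (adjusted p = 0.0232), and this call was lost without light ventral 1 or 4, sham ventral 2, light dorsal 1 or sham dorsal 2 (highest adjusted p = 0.0563, without sham dorsal 2). A second, dimmer probe set of Glra3, with a mean of 3.5, gave 0.06 for that difference. Glrb, which anchors the receptor at the synapse through gephyrin, gave -0.16 between the ventral and dorsal SCN (95% interval -0.41 to 0.09) and -0.19 between the central and dorsal SCN (-0.44 to 0.06). Gphn, the gephyrin scaffold gene, gave -0.1 (-0.45 to 0.25) and 0.08 (-0.27 to 0.43) in those comparisons.

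**Figure D2:**
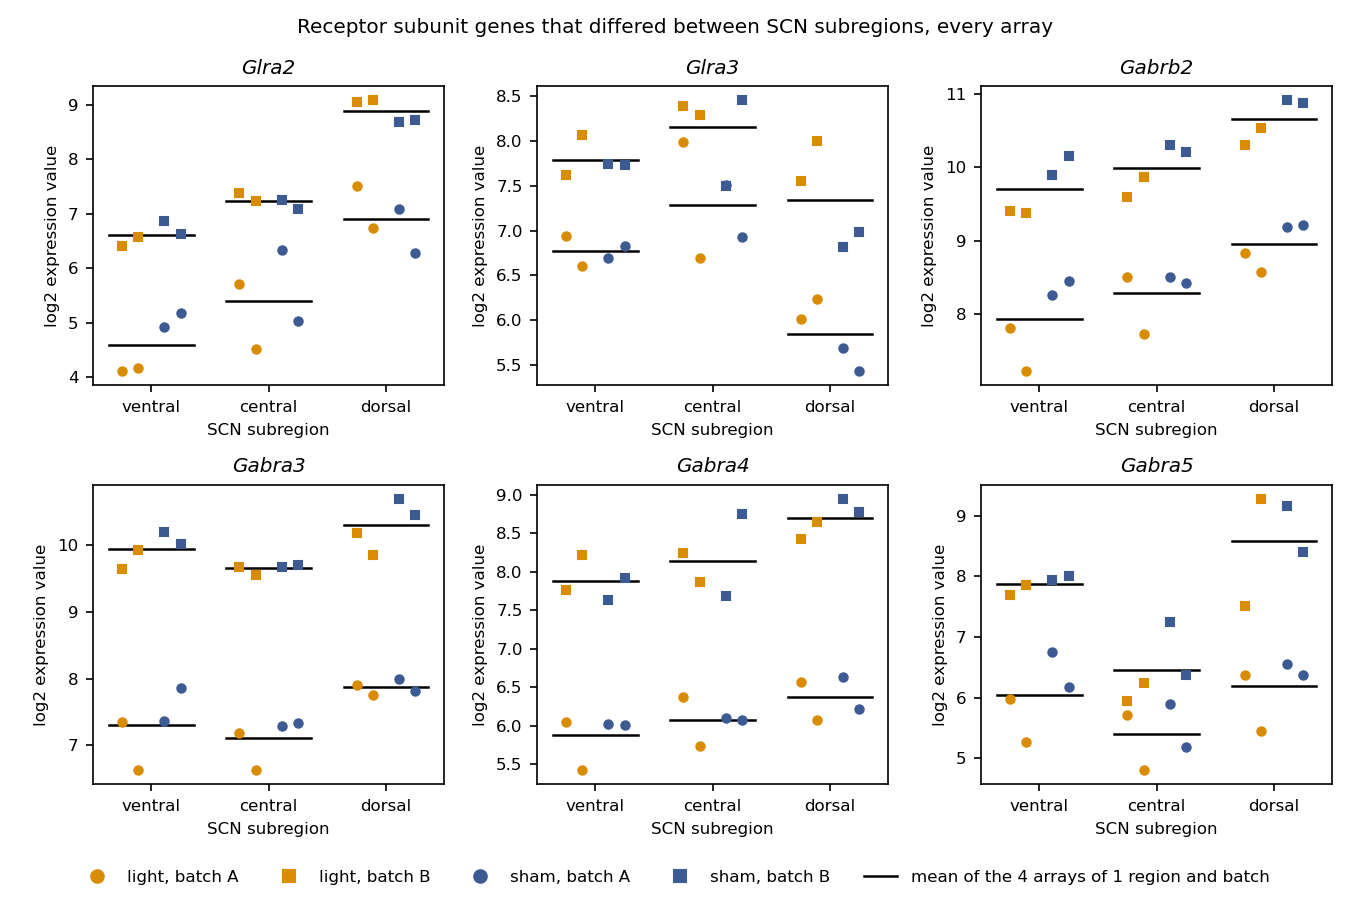
Log2 expression value of 6 receptor subunit genes on every array, by subregion, with light pulse arrays (orange) left of sham arrays (blue), batch A as circles and batch B as squares. Black lines are means of the 4 arrays of 1 subregion and batch. Dorsal arrays sit highest for Glra2 and Gabrb2 and lowest for Glra3 in both batches, by the means.

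The start regions of the receptor genes that the subregion and light results turn on are given here as RefSeq promoter windows of 300 bases, 250 before and 50 after the annotated start (build GRCm38.p6), each read 5′ to 3′ on the strand of its gene. Glra2 and Glra3 are shown because they went opposite ways, Gabrb2 because it differed by region and by light, and Gabra4 and Gabrb1 because their windows lie 288 bases apart on opposite strands of chromosome 5. The windows are chrX:165327344-165327643 (minus strand) for Glra2, chr8:55940168-55940467 (plus) for Glra3, chr11:42420190-42420489 (plus, the first of 3 windows) for Gabrb2, chr5:71658259-71658558 (minus) for Gabra4 and chr5:71657671-71657970 (plus, the first of 2) for Gabrb1. Capitals mark matches on either strand to a GC box (GGGCGG) or a TATA box (TATAAA).
Glra2: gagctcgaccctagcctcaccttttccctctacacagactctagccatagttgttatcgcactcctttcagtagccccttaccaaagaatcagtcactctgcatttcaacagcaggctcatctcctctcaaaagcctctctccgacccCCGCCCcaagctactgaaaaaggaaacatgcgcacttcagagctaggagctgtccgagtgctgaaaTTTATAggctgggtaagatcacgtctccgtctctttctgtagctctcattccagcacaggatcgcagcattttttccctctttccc
Glra3: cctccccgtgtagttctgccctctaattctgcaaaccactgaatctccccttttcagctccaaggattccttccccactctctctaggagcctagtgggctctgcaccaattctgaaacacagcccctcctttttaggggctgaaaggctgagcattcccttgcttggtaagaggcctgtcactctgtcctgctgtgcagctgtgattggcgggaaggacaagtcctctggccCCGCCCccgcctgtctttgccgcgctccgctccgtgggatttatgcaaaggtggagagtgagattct
Gabrb2: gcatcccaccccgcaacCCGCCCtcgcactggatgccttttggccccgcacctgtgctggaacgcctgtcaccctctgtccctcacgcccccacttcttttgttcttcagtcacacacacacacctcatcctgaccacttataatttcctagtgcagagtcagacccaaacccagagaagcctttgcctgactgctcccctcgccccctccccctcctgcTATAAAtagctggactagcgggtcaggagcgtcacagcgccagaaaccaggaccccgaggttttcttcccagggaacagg
Gabra4: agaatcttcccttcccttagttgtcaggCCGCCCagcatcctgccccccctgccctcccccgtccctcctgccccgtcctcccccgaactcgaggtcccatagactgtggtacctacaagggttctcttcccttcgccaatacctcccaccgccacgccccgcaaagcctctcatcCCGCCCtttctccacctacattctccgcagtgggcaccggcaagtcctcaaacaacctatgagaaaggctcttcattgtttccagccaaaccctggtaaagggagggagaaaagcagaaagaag
Gabrb1: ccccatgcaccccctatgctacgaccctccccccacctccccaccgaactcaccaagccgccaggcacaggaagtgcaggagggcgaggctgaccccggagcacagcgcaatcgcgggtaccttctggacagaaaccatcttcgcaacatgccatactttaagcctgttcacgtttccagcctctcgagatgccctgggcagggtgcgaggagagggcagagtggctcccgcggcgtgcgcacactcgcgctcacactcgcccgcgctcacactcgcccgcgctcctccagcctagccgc
An E-box (CACGTG) and a cyclic AMP response element (TGACGTCA) were searched for too, and none of the 5 windows holds either. Of all 32851 promoter windows, 35.7% held a GC box, 13.6% a TATA box, 7.15% an E-box and 1.79% a cyclic AMP response element on either strand. Windows were given for 23 of the 27 genes, 30 in all, and 17 of these held a GC box, 5 a TATA box, 1 an E-box and 0 a cyclic AMP response element. The motif letters do not overlap each other. A match of letters is a description of the window and no binding site was measured.

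Of the 10 tested GABA-A receptor subunits, 3 were lower and 0 higher in the ventral than in the dorsal SCN, against 1.98% and 2.63% of all genes tested. In the central SCN 3 were lower and 0 higher than in the dorsal SCN, against 5.14% and 1.96% of all genes. The median of these 10 genes was -0.3 and -0.35 in the 2 comparisons, beside 0.01 and -0.05 over all genes. Gabrb2 encodes a beta subunit, the part of the receptor that takes part in binding GABA together with an alpha subunit. Ventral Gabrb2 values were 7.81 and 7.22 in batch A and 9.41 and 9.37 in batch B after light, against 8.26 and 8.45 in batch A and 9.89 and 10.15 in batch B after sham. Central Gabrb2 values were 8.51 and 7.73 in batch A and 9.60 and 9.86 in batch B after light, against 8.50 and 8.43 in batch A and 10.30 and 10.21 in batch B after sham. Dorsal Gabrb2 values were 8.83 and 8.58 in batch A and 10.30 and 10.54 in batch B after light, against 9.19 and 9.21 in batch A and 10.92 and 10.87 in batch B after sham. All ventral values lay below all dorsal values of their batch. Central values lay below the dorsal ones too, and sham central 3 and light dorsal 3 met at 10.30. Gabrb2 was 1.98-fold lower in the ventral than in the dorsal SCN (-0.98 ± 0.112, adjusted p = 4.41e-06) and lower in the central than in the dorsal SCN (-0.66 ± 0.112, adjusted p = 0.000467). Between the ventral and central SCN it gave -0.32 ± 0.112 (adjusted p = 0.121), which passed with the treatment and replicate number as a block (adjusted p = 0.0298). The 3 other probe sets of Gabrb2 that passed the filter gave -1.04, -0.72 and -0.67 between the ventral and dorsal SCN, all with an adjusted p under 0.05 in a fit over the 30983 probe sets tested.

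Gabra3 and Gabra4 encode alpha subunits, which set the receptor's pharmacology and contribute to the GABA binding site. Ventral Gabra3 values were 7.35 and 6.62 in batch A and 9.64 and 9.93 in batch B after light, against 7.37 and 7.86 in batch A and 10.20 and 10.02 in batch B after sham. Central Gabra3 values were 7.19 and 6.62 in batch A and 9.68 and 9.55 in batch B after light, against 7.29 and 7.34 in batch A and 9.68 and 9.71 in batch B after sham. Dorsal Gabra3 values were 7.91 and 7.76 in batch A and 10.18 and 9.86 in batch B after light, against 8 and 7.81 in batch A and 10.70 and 10.46 in batch B after sham. Every central value lay below every dorsal value of its batch, whereas ventral and dorsal values overlapped in both batches. Gabra3 was lower in the central than in the dorsal SCN (-0.7 ± 0.128, adjusted p = 0.000991) and in the ventral than in the dorsal SCN (-0.46 ± 0.128, adjusted p = 0.0378). The ventral call was lost on leaving out any one of light ventral 2 and 3, sham ventral 1, 3 and 4, light dorsal 1 and 2 and sham dorsal 1, 3 and 4, with the highest adjusted p, 0.0943, without sham ventral 1. Its second probe set, with a mean of 3.65, gave -0.23 and -0.24 in the ventral minus dorsal and central minus dorsal comparisons.

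Ventral Gabra4 values were 6.05 and 5.42 in batch A and 7.76 and 8.22 in batch B after light, against 6.02 and 6.01 in batch A and 7.63 and 7.92 in batch B after sham. Central Gabra4 values were 6.38 and 5.74 in batch A and 8.25 and 7.87 in batch B after light, against 6.10 and 6.07 in batch A and 7.69 and 8.75 in batch B after sham. Dorsal Gabra4 values were 6.57 and 6.08 in batch A and 8.42 and 8.64 in batch B after light, against 6.64 and 6.22 in batch A and 8.95 and 8.78 in batch B after sham. All ventral values lay below all dorsal values of their batch, by a margin of 6.05 against 6.08 in batch A, and central values overlapped both. Gabra4 was lower in the ventral than in the dorsal SCN (-0.66 ± 0.156, 1.58-fold, adjusted p = 0.0136). A dimmer probe set with a mean of 4.33 gave -0.14 there. Between the central and dorsal SCN Gabra4 gave -0.43 ± 0.156 (adjusted p = 0.109), which passed with the treatment and replicate block (adjusted p = 0.0485).

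Gabra5 encodes an alpha subunit typical of receptors outside the synapse. Ventral Gabra5 values were 5.98 and 5.27 in batch A and 7.69 and 7.85 in batch B after light, against 6.75 and 6.18 in batch A and 7.94 and 8 in batch B after sham. Central Gabra5 values were 5.71 and 4.80 in batch A and 5.94 and 6.24 in batch B after light, against 5.90 and 5.18 in batch A and 7.24 and 6.38 in batch B after sham. Dorsal Gabra5 values were 6.38 and 5.45 in batch A and 7.51 and 9.28 in batch B after light, against 6.56 and 6.37 in batch A and 9.15 and 8.40 in batch B after sham. In batch B all central values lay below all ventral and dorsal ones, and in batch A the subregions overlapped. Gabra5 was 2.76-fold lower in the central than in the dorsal SCN (-1.46 ± 0.27, adjusted p = 0.00111), with -0.79 in batch A and -2.13 in batch B. It was higher in the ventral than in the central SCN (1.03 ± 0.27, adjusted p = 0.024), by 0.65 in batch A and 1.42 in batch B, and this call was lost after quantile normalization (adjusted p = 0.0581) and without any one of light ventral 1, 3 and 4, sham ventral 1, light central 3 and 4 and sham central 4 (highest adjusted p = 0.0683, without sham central 4). Its means in the central SCN, 5.4 in batch A and 6.45 in batch B, were the lowest of the 3 subregions. The ventral minus dorsal difference of -0.43 had an interval of -0.99 to 0.13.

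Gabra2, another alpha subunit gene, had its highest means in the central SCN, 8.76 ± 0.49 in batch A and 10.47 ± 0.26 in batch B, against 8.48 ± 0.35 and 10.04 ± 0.24 in the ventral SCN and 8.26 ± 0.36 and 10 ± 0.17 in the dorsal SCN (SD, n = 4 each). The central minus dorsal difference of 0.49 ± 0.155 missed the threshold (adjusted p = 0.0609) and passed with the treatment and replicate block (adjusted p = 0.00837). Gabrb1 and Gabrg1, a beta and a gamma subunit gene, gave 0 (-0.21 to 0.21) and 0.15 (-0.12 to 0.42) between the ventral and dorsal SCN. Gabrb1 is the direct neighbour of Gabra4 among the coding genes of chromosome 5, and Gabrg1 that of Gabra2. Gabrg3 gave -0.21 (-0.64 to 0.22) there. Gabre and Gabrq, which lie on the X chromosome beside Gabra3, exceeded their array's median on only 1 and 9 of the 24 arrays, and gave -0.38 (-0.74 to -0.01) and -0.11 (-0.48 to 0.27). The GABA-B receptor subunit gene Gabbr1 gave 0.09 (-0.13 to 0.31) between the ventral and dorsal SCN and 0.07 (-0.15 to 0.29) between the central and dorsal SCN.

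Slc12a2, the chloride importer gene, was the one chloride transporter gene that differed. Ventral Slc12a2 values were 8.90 and 9.06 in batch A and 10.20 and 10.40 in batch B after light, against 8.78 and 8.82 in batch A and 10.03 and 10.51 in batch B after sham. Central Slc12a2 values were 7.93 and 7.76 in batch A and 9.34 and 9.53 in batch B after light, against 7.89 and 8.17 in batch A and 9.52 and 9.76 in batch B after sham. Dorsal Slc12a2 values were 8.19 and 8.08 in batch A and 9.97 and 9.85 in batch B after light, against 8.18 and 8.05 in batch A and 9.81 and 9.91 in batch B after sham. In both batches every ventral value lay above every central and every dorsal value. Slc12a2 was higher in the ventral than in the dorsal SCN (0.58 ± 0.0987, 1.5-fold, adjusted p = 0.000544) and than in the central SCN (0.85 ± 0.0987, 1.8-fold, adjusted p = 5.5e-06). Its other probe sets gave 0.92 and 0.96 between the ventral and dorsal SCN and 0.61 and 0.79 between the ventral and central SCN. Slc12a5, the neuronal chloride exporter gene, passed in no comparison of subregions. Ventral Slc12a5 values were 9.43 and 8.92 in batch A and 10.53 and 10.91 in batch B after light, against 9.45 and 9.37 in batch A and 10.86 and 10.94 in batch B after sham. Central Slc12a5 values were 9.61 and 8.93 in batch A and 10.75 and 10.85 in batch B after light, against 9.73 and 9.27 in batch A and 10.88 and 11.04 in batch B after sham. Dorsal Slc12a5 values were 9.22 and 8.82 in batch A and 10.53 and 10.92 in batch B after light, against 9.30 and 9.12 in batch A and 10.81 and 10.63 in batch B after sham. The subregions overlapped throughout, and the differences were 0.13 (-0.11 to 0.37) between the ventral and dorsal SCN, 0.21 (-0.03 to 0.46) between the central and dorsal SCN and -0.08 (-0.33 to 0.16) between the ventral and central SCN.

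Gad1 and Gad2, the enzymes that make GABA from glutamate, and Slc32a1, which loads GABA and glycine into vesicles, did not pass in any comparison of subregions, except that Gad2 was lower in the central than in the dorsal SCN with array weights (-0.26, adjusted p = 0.0362). Ventral Gad1 values were 10.67 and 10.46 in batch A and 11.54 and 11.69 in batch B after light, against 10.10 and 10.18 in batch A and 11.40 and 11.49 in batch B after sham. Central Gad1 values were 10.44 and 10.23 in batch A and 11.38 and 11.59 in batch B after light, against 10.15 and 9.40 in batch A and 11.48 and 11.59 in batch B after sham. Dorsal Gad1 values were 10.14 and 10.16 in batch A and 11.60 and 11.98 in batch B after light, against 10.42 and 9.47 in batch A and 11.42 and 11.67 in batch B after sham. Values of the 3 subregions overlapped in both batches. Ventral Gad2 values were 10.81 and 10.83 in batch A and 11.47 and 11.48 in batch B after light, against 10.59 and 10.69 in batch A and 11.24 and 11.31 in batch B after sham. Central Gad2 values were 10.78 and 10.53 in batch A and 11.45 and 11.29 in batch B after light, against 10.52 and 10.37 in batch A and 11.29 and 11.51 in batch B after sham. Dorsal Gad2 values were 10.87 and 10.84 in batch A and 11.63 and 11.28 in batch B after light, against 10.95 and 10.51 in batch A and 11.64 and 11.68 in batch B after sham. Here too the subregions overlapped. Ventral Slc32a1 values were 8.67 and 8.49 in batch A and 10.19 and 10.01 in batch B after light, against 8.74 and 8.53 in batch A and 10.09 and 10.18 in batch B after sham. Central Slc32a1 values were 8.39 and 7.64 in batch A and 10.04 and 9.87 in batch B after light, against 8.88 and 8.77 in batch A and 9.83 and 10.05 in batch B after sham. Dorsal Slc32a1 values were 8.75 and 8.30 in batch A and 10.10 and 10.51 in batch B after light, against 8.82 and 8.74 in batch A and 10.39 and 10.12 in batch B after sham. Central values lay below the dorsal ones in batch B, and the subregions overlapped otherwise. The ventral minus dorsal differences were 0.08 (95% interval -0.21 to 0.38) for Gad1, -0.12 (-0.32 to 0.07) for Gad2 and -0.1 (-0.37 to 0.17) for Slc32a1. The central minus dorsal differences were -0.08 (-0.37 to 0.22) for Gad1, -0.21 (-0.4 to -0.01) for Gad2 and -0.28 (-0.55 to -0.01) for Slc32a1, with adjusted p of 0.808, 0.229 and 0.229.

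**Figure D3:**
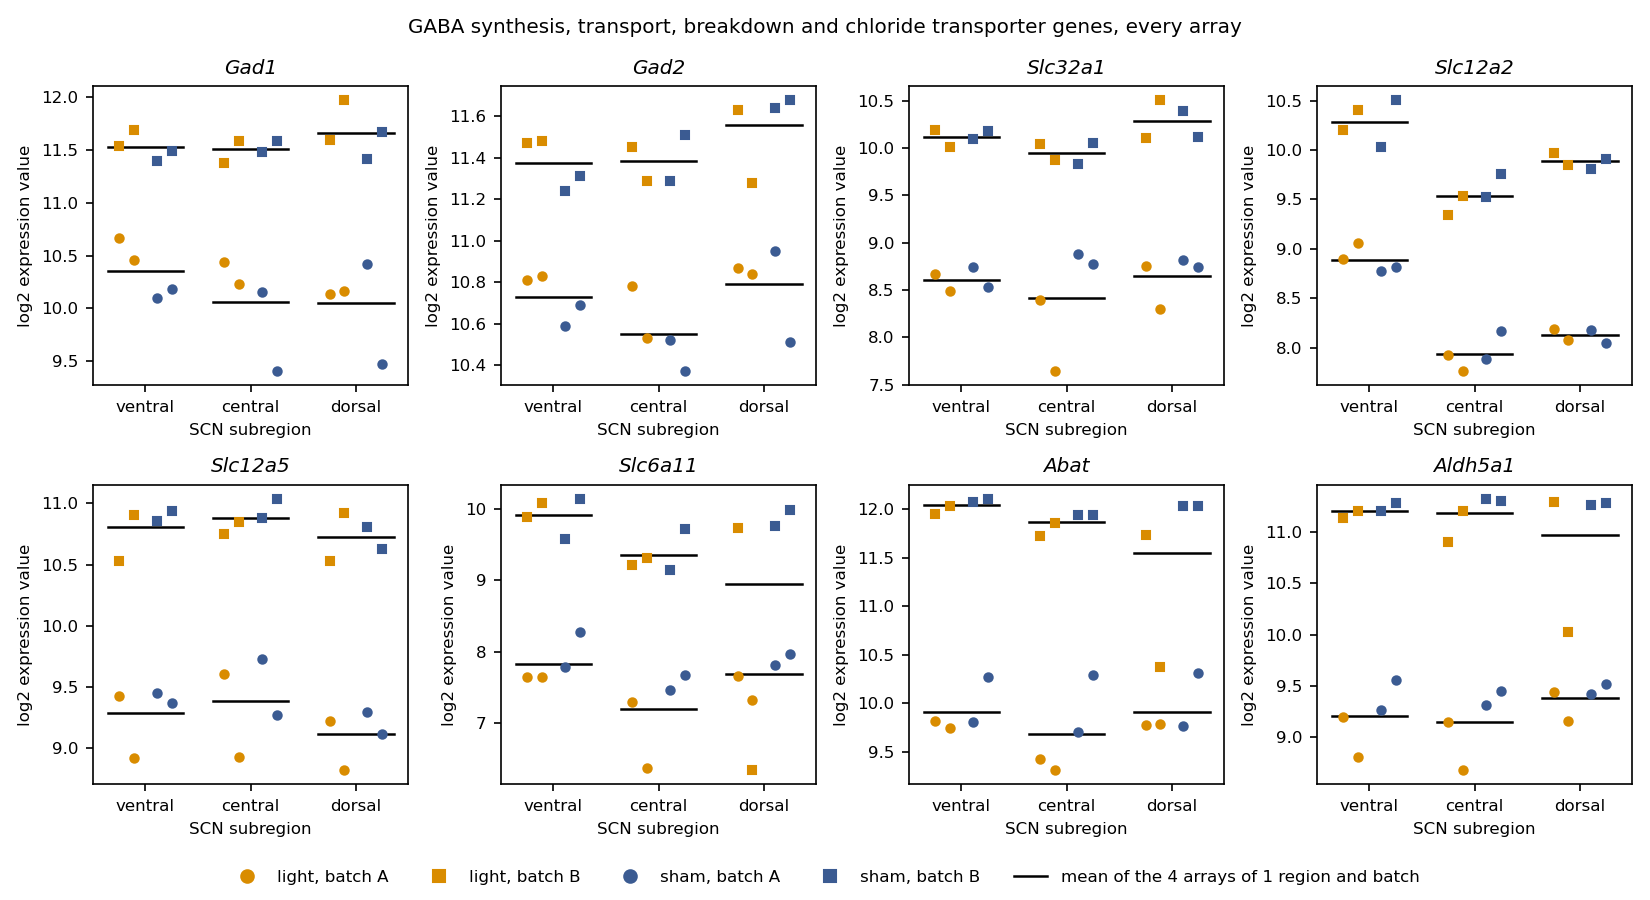
Log2 expression value of 8 genes of GABA synthesis, vesicular and plasma membrane transport, breakdown and chloride transport on every array, with light pulse arrays (orange) left of sham arrays (blue), batch A as circles and batch B as squares. Black lines are means of the 4 arrays of 1 subregion and batch. Slc12a2 sits highest in the ventral SCN, and light dorsal 4 sits far below the other batch B arrays for Slc6a11 (6.34), Abat (10.38) and Aldh5a1 (10.02).

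Slc6a11, a GABA uptake transporter found mainly on astrocytes, gave 0.6 ± 0.33 between the ventral and central SCN (adjusted p = 0.508). Without light dorsal 4 that difference was again 0.6 and passed (adjusted p = 0.00696). Abat and Aldh5a1 break GABA down in mitochondria, and they gave 0.25 (-0.11 to 0.6) and 0.03 (-0.29 to 0.35) between the ventral and dorsal SCN, against 0.07 and -0.13 without light dorsal 4. Slc6a13, a GABA transporter best known from the meninges, read between 2.98 and 4.32 over all arrays and gave 0.1 (-0.14 to 0.33) between the ventral and dorsal SCN.

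Markers of other cells differed between the subregions as well. Of 8 tested oligodendrocyte markers, 6 were higher in the ventral than in the dorsal SCN, 6 were lower in the central than in the dorsal SCN and 8 were higher in the ventral than in the central SCN, with medians of 1.07, -1.16 and 2.59. Mean oligodendrocyte levels ran from 7.48 to 8.19 in the ventral, 4.97 to 5.82 in the central and 6.37 to 6.84 in the dorsal SCN of batch A, and from 8.82 to 9.26, 6.62 to 7.04 and 7.94 to 8.22 in batch B. Of 9 astrocyte markers, 3 were higher in the ventral than in the dorsal SCN, 2 were lower in the central than in the dorsal SCN and 7 were higher in the ventral than in the central SCN. The order ventral, dorsal, central of the oligodendrocyte means is also that of the Slc12a2 means, and the part of glial RNA in the Slc12a2 difference was not tested.

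Markers of neurons had their highest mean levels in the dorsal SCN. Of 5 tested markers of neighbouring hypothalamic neurons, 2 were lower in the ventral than in the dorsal SCN (Sst with a log2 difference of -5.26 and Oxt with -2.03) and 4 were lower in the central than in the dorsal SCN. Their mean level ran from 4.43 to 4.77 in the ventral, 4.03 to 4.63 in the central and 5.61 to 6.81 in the dorsal SCN of batch A, and from 4.95 to 6.03, 4.56 to 5.31 and 5.9 to 7.76 in batch B. Of 8 general neuron markers, 2 were lower in the ventral and 3 lower in the central than in the dorsal SCN, among them Syt1 with -2.04 and -1.86. Glra2, Gabrb2 and Gabra3 in both, Gabra4 in the ventral and Gabra5 in the central SCN were lower than in the dorsal SCN alongside these lists, whose part in those differences was not tested. Ependymal markers were lower too for 2 of 4 in both the ventral and the central SCN.

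**Figure D4:**
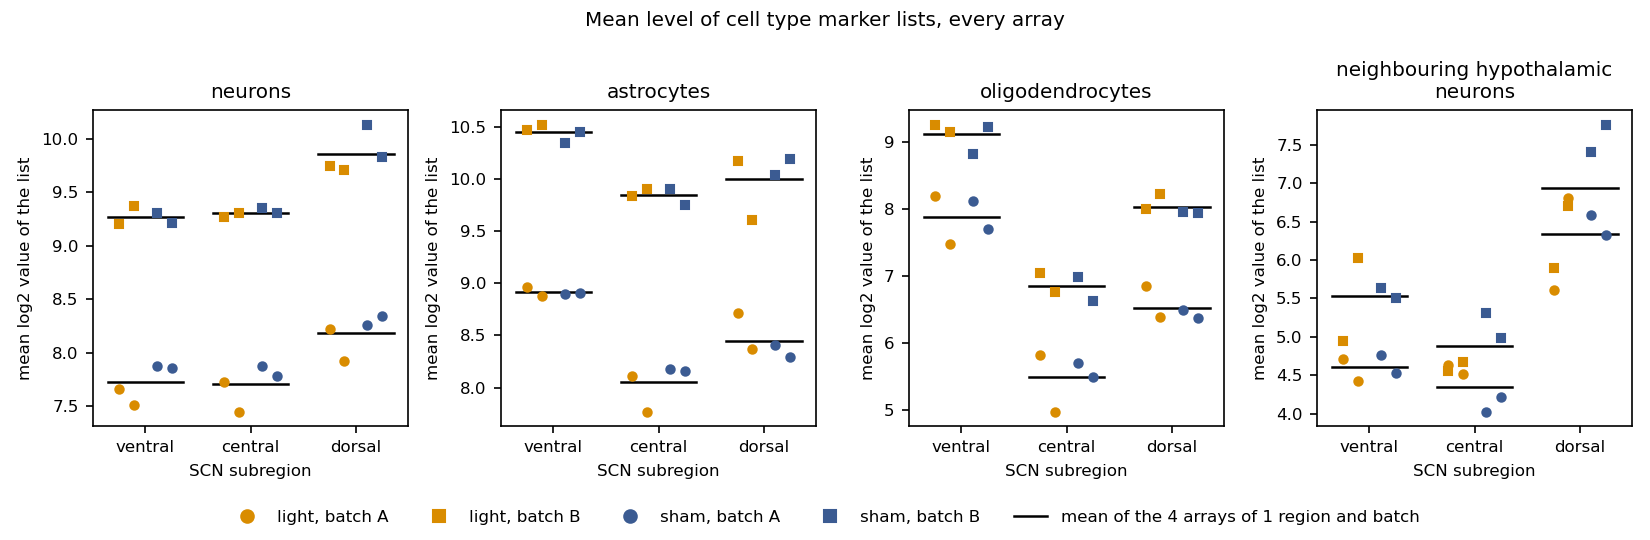
Mean log2 value of 4 marker lists on every array, by subregion, with light pulse arrays (orange) left of sham arrays (blue), batch A as circles and batch B as squares, and black lines for the mean of 4 arrays. Oligodendrocyte markers sit highest in the ventral and lowest in the central SCN, from 4.97 to 5.82 on central batch A arrays, and markers of neighbouring hypothalamic neurons sit highest in the dorsal SCN.

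Among 30 further genes of inhibitory synapses, receptor partners, chloride transport and glutamine supply, 23 were tested. Of these, 3 were higher in the ventral than in the dorsal SCN (2.63% of all genes tested) and 2 higher in the central than in the dorsal SCN (1.96%). In either comparison 0 were lower (1.98% and 5.14%). Iqsec3, a protein of inhibitory synapses that binds gephyrin, was higher in both (0.66 ± 0.133, adjusted p = 0.00315, and 0.65 ± 0.133, adjusted p = 0.00299). Plcl1, which takes part in the trafficking of GABA-A receptors, was higher in both as well (0.52 ± 0.132, adjusted p = 0.0195, and 0.65 ± 0.132, adjusted p = 0.00245). Kctd8, an auxiliary GABA-B receptor subunit, was higher in the ventral than in the dorsal SCN (0.56 ± 0.155, adjusted p = 0.04). Slc6a9, the glial glycine transporter, was the one that differed between the ventral and central SCN, with 0.91 ± 0.201 (adjusted p = 0.00666).

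The light pulse left most of these genes without a call 3.5 h later. In the ventral SCN 1 of the 24 tested genes passed, Gabrb2, which was lower after light (0.719% of all genes passed, 0.133% as lower). In the central and dorsal SCN 0 of 24 passed (0.385% and 0.178% of all genes), and 0 passed for the light effect averaged over the subregions (0.408%). At an unadjusted p under 0.05 there were 5, 3 and 5 of the 24 genes in the ventral, central and dorsal SCN and 6 for the average, against 6.56%, 8.06%, 10.1% and 9.52% of all genes. With limma's array weights as another fit, Gabrb2 and Gabrb1 passed in the ventral SCN (Gabrb1 at -0.36, adjusted p = 0.0493), 0 in the central SCN and 1, Gabrb2, in the dorsal SCN. These weights ran from 0.0555 on light dorsal 4 to 4.68 on light dorsal 3, and light central 2 had 0.197. The batch B part of the light dorsal group thus rests almost wholly on light dorsal 3 in that fit. The median light effect of the 24 genes was -0.13, -0.19 and -0.1 in the ventral, central and dorsal SCN, beside -0.03, -0.08 and -0.03 over all genes tested. Of the 24, 17, 20 and 16 had an effect below 0 there, against 56.8%, 63.9% and 53.3% of all genes, and after quantile normalization the central count was 15, with Gabra4, Gabrg3, Gabre and Gabrq among the genes that moved above 0. Without light dorsal 4 and light central 2 the central count was 16 and the central median -0.11, beside 0 over all genes, and Slc32a1 gave -0.19 and Glra2 0.04 there.

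**Figure D5:**
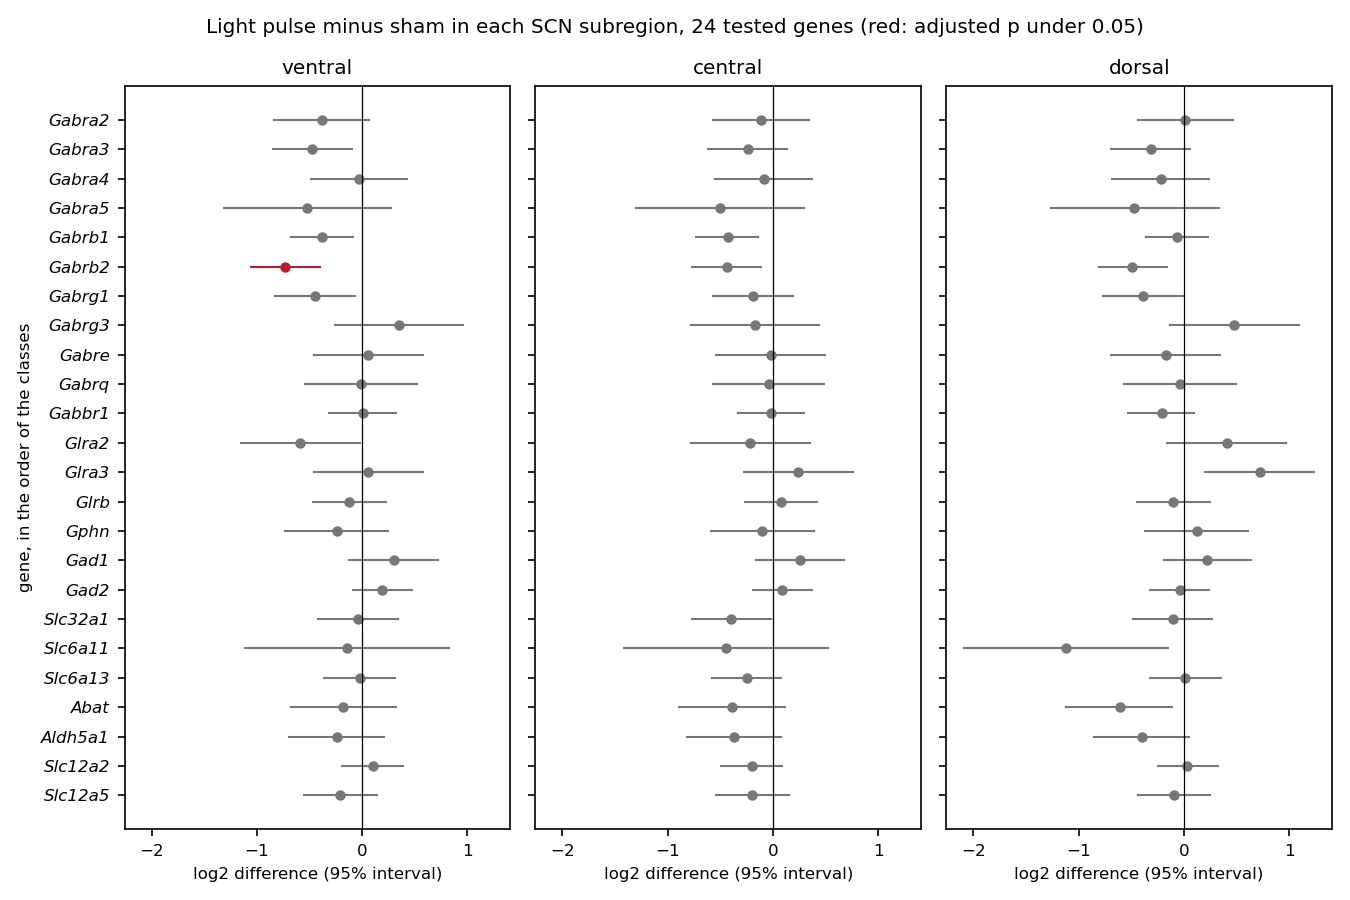
Light minus sham log2 difference of the 24 tested genes in the ventral, central and dorsal SCN, with 95% intervals from the fit with batch as a term (4 arrays against 4). Gabrb2 in the ventral SCN, in red, is the one that passed, at -0.73, and no gene passed in the central or dorsal panel.

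Both light ventral values of Gabrb2 lay below both sham ventral values in each batch, at 7.81 and 7.22 against 8.26 and 8.45 in batch A and 9.41 and 9.37 against 9.89 and 10.15 in batch B. The difference was -0.73 ± 0.159 (1.66-fold lower, adjusted p = 0.0262), with -0.84 in batch A and -0.62 in batch B. The 3 other probe sets of Gabrb2 that passed the filter gave -0.66, -0.64 and -0.65 for this effect, none past the threshold by itself. The call was lost on leaving out 6 of the 24 arrays one at a time, each a ventral array (light ventral 2, 3 and 4 and sham ventral 1, 2 and 4), while the estimate ran from -0.81 to -0.6. In the central SCN the light effect of Gabrb2 was -0.44 ± 0.159 (-0.77 to -0.11, adjusted p = 0.397), and in the dorsal SCN it was -0.49 ± 0.159 (-0.81 to -0.16, adjusted p = 0.346). The difference of these effects between subregions did not pass (moderated F of 1.01, adjusted p = 1), so the effect is not shown to be particular to the ventral SCN. No neuron marker of 8 passed for light in the ventral SCN, and their median was -0.03. Their mean level was 7.66 and 7.51 on light ventral arrays against 7.88 and 7.86 on sham ventral arrays in batch A, and 9.2 and 9.37 against 9.3 and 9.21 in batch B. The light values were thus below the sham ones in batch A and overlapped them in batch B, and the part of this in the Gabrb2 difference was not tested.

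Light and sham values were apart in both batches, in the same direction, for 8 of the 24 genes in the ventral SCN, 4 in the central SCN and 4 in the dorsal SCN, against 13.9%, 9.34% and 5.94% of all genes. Beside Gabrb2, the ventral ones were Gabra3, Gabra5, Gabrb1, Gabrg1 and Glra2, with differences of -0.48, -0.52, -0.38, -0.45 and -0.59, and Gad1 and Gad2, with 0.3 and 0.19. None of these other 7 passed in the fit without array weights, at adjusted p from 0.484 to 1. Gabrb1 is the nearest of them to Gabrb2 in role, as another beta subunit. It gave -0.38 ± 0.142 in the ventral SCN (-0.68 to -0.09) and -0.43 ± 0.142 in the central SCN (-0.73 to -0.14). A second bright probe set of Gabrb1 gave -0.75, -0.63 and -0.63 in the ventral, central and dorsal SCN, with adjusted p of 0.0948, 0.303 and 0.306.

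The glycine receptor genes showed no light call. Glra3 in the dorsal SCN read 6.01, 6.24, 7.55 and 8 after light, against 5.69, 5.43, 6.82 and 6.98 after sham, so that both light values exceeded both sham values in each batch. Vip and Grp, markers of the SCN core that were higher in the ventral and central than in the dorsal SCN, had mean levels of 8.41, 7.94, 10 and 10.23 on these light arrays, against 7.58, 7.23, 8.28 and 9.83 on the sham arrays, and their part in the Glra3 difference was not tested. The Glra3 difference of 0.72 ± 0.25 (0.2 to 1.24) did not pass over all genes (adjusted p = 0.381). The value of 8 is light dorsal 4, and without that array and light central 2 the difference was 0.53 (limma adjusted p = 0.459). Glra2 gave -0.59 (-1.15 to -0.02) in the ventral, -0.22 (-0.78 to 0.35) in the central and 0.41 (-0.16 to 0.97) in the dorsal SCN. Its test of a difference between subregions had the smallest unadjusted p of the 24, 0.0535 (adjusted p = 1), and 0 of the 24 genes passed that test, beside 0.00741% of all genes.

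No enzyme or transporter gene passed for light in any subregion. Gad1 gave 0.3 (-0.12 to 0.72), 0.26 (-0.16 to 0.67) and 0.22 (-0.19 to 0.64) after light in the ventral, central and dorsal SCN. Gad2 gave 0.19 (-0.09 to 0.47), 0.09 (-0.19 to 0.37) and -0.04 (-0.32 to 0.24). A second, dimmer probe set of Gad1 gave 0.58, -0.19 and -0.76, so the probe sets did not go the same way. Every interval of Gad1 and Gad2 included 0. Slc32a1 gave -0.04 (-0.42 to 0.34), -0.4 (-0.77 to -0.02) and -0.1 (-0.48 to 0.27), and the central value was -0.81 in batch A and 0.02 in batch B. Slc12a2 gave 0.1 (-0.19 to 0.39), -0.2 (-0.49 to 0.09) and 0.03 (-0.25 to 0.32). Slc12a5 gave -0.21 (-0.55 to 0.14), -0.2 (-0.54 to 0.15) and -0.09 (-0.44 to 0.25).

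Leaving out light dorsal 4 moved the dorsal light differences of Slc6a11, Abat, Aldh5a1 and Gabra5, and those of genes in other classes too. Without light dorsal 4 and light central 2, Glrb gave -0.29 there against -0.1, Slc32a1 -0.23 against -0.1 and Slc12a5 -0.2 against -0.09. In that fit Gad1 gave 0.12 against 0.22, Gabbr1 -0.01 against -0.21 and Gphn -0.09 against 0.12. Slc6a11 in the dorsal SCN read 7.66, 7.33, 9.73 and 6.34 after light, against 7.82, 7.97, 9.76 and 9.98 after sham. The value of 6.34 is light dorsal 4, and the difference of -1.12 ± 0.467 (adjusted p = 0.454) was -0.29 without that array. Abat there read 9.78, 9.79, 11.74 and 10.38 after light, against 9.77, 10.31, 12.03 and 12.03 after sham, and its difference of -0.61 was -0.25 without light dorsal 4. Aldh5a1 gave -0.4, and -0.08 without it. In the ventral SCN these 3 genes gave -0.14 (-1.11 to 0.83), -0.18 (-0.68 to 0.32) and -0.24 (-0.69 to 0.21). Gabra5, in contrast, gave -0.47 in the dorsal SCN and -0.9 without light dorsal 4 (adjusted p = 0.449). Of the 23 tested further genes of inhibitory synapses and chloride transport, 0 passed for light in any subregion, with medians of 0.05, -0.03 and -0.02.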

How the data were processed

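Laser-microdissected ventral, central and dorsal SCN were measured on 24 Affymetrix arrays in 6 groups of 4. The deposited table holds the authors' log2 expression value of 45101 probe sets; GCRMA 2.32.0, MAS5 and R 3.0.2 stand in the submitters' processing notes without their roles, and the normalization across batches is not given there. Gene names come from the platform annotation (34945 with 1 symbol, 932 with several, 9160 with none, 64 controls). The probe set with the highest mean stood for a gene, and 13494 of 18193 genes exceeded log2 4 on at least 4 arrays. The number of arrays and the signal over background limit the precision.

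Tests were two-sided and used R 4.3.3 with limma 3.58.1 (lmFit and eBayes, with a Benjamini-Hochberg adjustment over the 13494 genes), with 6 group means and the batch on all 24 arrays (17 residual and 4.7 prior degrees of freedom). Region differences set 8 arrays against 8. The average light effect was fitted on 8 composites of the 3 subregions (5 residual degrees of freedom), and differences of light effects between subregions with a moderated F. On simulated data with known changes in the 13494 genes, the ventral light test recovered 58% of 100 genes changed by log2 1 and 96% of 100 changed by 2, with 8 false calls. The ventral minus dorsal test recovered 95% and 100%, with 13 false calls. The simulated noise was normal and independent between genes and arrays, at the fitted spread of each gene. Outlying arrays and deviations shared between arrays were not part of it, so these figures need not hold for the real data. Alternatives are given in the closing section. Of 276 pairs of arrays, 0 were identical.

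The members and lists were chosen with earlier results of these data known. All 27 listed genes are accounted for. Values of every array are given for genes past the threshold and for Gad1, Gad2, Slc32a1, Slc12a2 and Slc12a5, and further genes of the pathway are named where they passed. Glra3 and Gabrb1 light values, and the genes that 1 array moved, were singled out after their values were seen. Replicate numbers were checked for pairing. Deviations of same-numbered arrays of 1 treatment in different subregions correlated at 0.185 to 0.623 in 12 of 12 comparisons. Those of light and sham arrays, in the same or different subregions, correlated at 0.096 to 0.422, over 0.1 in 17 of 18. These ranges overlap, with 2 arrays per group and batch, so the check cannot settle whether the numbers pair the subregions or the treatments. The main fit took no pairing, and fits with a block are given in the closing section.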

Additional observations from a re-analysis of the deposited data

Results flagged for a closer look

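For 24 genes in 6 groups, 144 sets of 4 arrays were checked after the batch difference was taken out. In 15 of them 1 array lay far from the other 3, as judged by its gap to the nearest array as a share of the group's range. Chance gives about 1 in 20 groups for 4 independent normal values. The same arrays recur over the genes and the batch difference was estimated, so that rate need not hold here. Light dorsal 4 was the far array in 4 of the 15. Abat read 10.38 there, against 11.74 on the other batch B array of its group (share 0.976), Slc6a11 read 6.34 against 9.73 (0.831), Gad1 11.98 against 11.6 (0.889) and Gad2 11.28 against 11.63 (0.876).

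Among the GABA-A receptor genes, the share was 0.88 for Gabra2 in the sham dorsal group (sham dorsal 2), 0.88 for Gabra5 in the sham ventral group (sham ventral 1), 0.832 for Gabrb1 in the light ventral group (light ventral 1), 0.891 for Gabrg3 in the sham central group (sham central 1) and 0.916 for Gabrq in the sham ventral group (sham ventral 3). Gabrq read 3.43 there. In the light ventral group it was 0.894 for Glrb (light ventral 3) and 0.877 for Gphn (light ventral 1). Gad1 in the sham central group (sham central 2, 9.4 against 10.15 on its batch mate) had 0.868, and Gad2 in the sham dorsal group (sham dorsal 2) had 0.883. Slc6a11 in the light central group (light central 2) had 0.837, and Aldh5a1 in the sham central group (sham central 1) had 0.851.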

How the results depend on the processing

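The count of genes past the threshold for light in the ventral SCN, 1, was 0 without the batch term, in batch A alone, in batch B alone, with the mean of a gene's probe sets and in a fit of that region alone, and 2 with array weights; without each array in turn it ran from 0 to 1. Array weights gave 1 in the dorsal SCN. For the average over subregions, the mean of the 3 contrasts gave 2, against 0. For these light comparisons other than the ventral one, leaving out arrays gave 0 to 0. The ventral minus dorsal count of 6 was 0 without the batch term, 3 in batch A alone, 2 in batch B alone and 2 on light arrays alone, and 4 to 6 without single arrays. On sham arrays alone Gabra3 (limma adjusted p = 0.208) and Gabra4 (0.0861) did not pass, and Slc12a2 passed at 0.0499. Gabra4 also missed in each batch alone and on light arrays alone, and Gabra3 with the mean of its probe sets. The central minus dorsal count of 5 was 0 without the batch term, 1 in batch A, 2 in batch B, 8 with array weights (Gabra2, Gad2 and Slc12a2 gained) and 1 on light arrays alone, and 5 to 6 without single arrays. The ventral minus central count of 3 was 0 without the batch term, 1 in batch A, 0 in batch B, 6 with array weights, 6 without light dorsal 4 and light central 2, and 1 on sham or on light arrays alone, and 1 to 4 without single arrays (1 without light ventral 1, sham ventral 1, light central 3 or light central 4). Fits of 1 batch or treatment use fewer arrays; the cause of the other shifts was not tested. Glra2 and Gabrb2 between the ventral and dorsal SCN passed in 13 of 14 alternatives each, all but the fit without the batch term. No difference turned its sign among the named calls.

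A block of treatment and replicate number takes the numbers to pair the subregions, which was not settled. With it, 6, 7 and 4 genes passed for ventral minus dorsal, central minus dorsal and ventral minus central. Beside the 3 gains named in the report, this block changed no other call. The replicate block by number alone kept Gabrb2 for light in the ventral SCN (adjusted p = 0.0121) and gave 0 in the central and dorsal SCN.

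The number of arrays, 4 a group with 2 a batch, limits the light tests. Their calls also depended on light dorsal 4. Over all genes, 97, 52 and 24 passed for light in the ventral, central and dorsal SCN. Without that array 207, 164 and 41 passed, and of the 24 genes 1, 0 and 0. Without light dorsal 4 and light central 2, Gabrb2 in the ventral SCN gave -0.73 (limma adjusted p = 0.00476). Low probe sets (Gabre, Gabrq, Slc6a13, Gabrd and Glra1) lie near background.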

Other observations

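The 2 genes that were not tested read low on all arrays: Gabrd, a GABA-A subunit typical of receptors outside the synapse, between 2.75 and 3.65, and Glra1, the adult glycine receptor alpha subunit of the spinal cord and brain stem, between 2.55 and 3.58. Each has 2 probe sets, and neither exceeded log2 4 on at least 4 arrays for either gene. The 26 measured genes have 62 probe sets in all, and 20 of the genes have more than 1.

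Glrb illustrates how far probe sets of 1 gene can part: the bright one gave -0.19 between the central and dorsal SCN, and a second one, with a mean of 7.27, gave -0.85 ± 0.269 (limma adjusted p = 0.0876 over all probe sets tested). For Gabra2, whose bright probe set gave 0.49 in that comparison, the others that passed the filter gave 0.48 and 0.25. For Gabrg1 they gave 0.29 and 0.57.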
